A study of Oryza sativa with 7 samples.

Results

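DNA methylation of Pokkali and IR64 seedlings was compared under salinity, in the CG and CHH contexts separately, by whole genome bisulphite sequencing. A comparison used the cytosines listed as methylated in both libraries on the 12 chromosomes, grouped into 100 bp bins with at least 3 shared cytosines of a context. In this way 741910 CG bins and 183410 CHH bins were tested between the salinity libraries. Among the bins that could also be tested between the control libraries, 107 of 681081 CG bins and 849 of 150766 CHH bins met the rule for a difference seen under salinity and not in control. These bins are called salinity-only here. The rule asked for a difference of at least 20 percentage points at an adjusted p of at most 0.01 under salinity, a difference under 10 points in control, and a difference between both differences that also passed an adjusted p of 0.01.

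The study holds 7 libraries of rice (Oryza sativa) seedlings, 1 for each group. IR64 is a cultivar sensitive to drought and salinity, Pokkali is salinity tolerant and Nagina 22 (N22) is drought tolerant. Pokkali salinity and IR64 salinity seedlings received a 200 mM salt solution, and Pokkali control and IR64 control seedlings received RO water. The remaining libraries were IR64 desiccation and N22 desiccation, from seedlings kept on dry filter paper, and N22 control. DNA of 3 biological replicates was pooled for the control libraries, so the spread between plants was not retained, and whether the stressed libraries were pooled is not given in the sources used here. Since each group is 1 library, every test below compares the reads of 2 libraries, not cultivars or treatments, and all intervals cover counting error only.

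In plants, methyl groups occur on cytosines in CG, CHG and CHH contexts, where H is A, C or T. CG methylation is copied to the new strand after each replication by MET1 and is usually high or absent at a site. CHG methylation is maintained by chromomethylases that read a histone mark. CHH sites have no matching cytosine on the other strand, so their methylation is set again in each cell cycle by RNA-directed DNA methylation through DRM2 and by CMT2, and it is typically found over transposons and at intermediate levels.

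Between 14843198 and 16818714 cytosines were listed in the 4 libraries compared, with a mean depth by context of 13.8 to 20.1 reads. The pooled level of listed CG cytosines was 81.5% in Pokkali salinity, 84.0% in IR64 salinity, 80.8% in Pokkali control and 82.6% in IR64 control. The pooled level of listed CHH cytosines was 34.1% in both salinity libraries, 30.9% in Pokkali control and 31.7% in IR64 control. Only cytosines called methylated are listed, so a cytosine missing from a library has an unknown state there, and regions methylated in only 1 of the libraries do not enter the comparison.

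In the CG context, Pokkali and IR64 differed at many bins, more often with the lower level in Pokkali. The cultivars differed at 26960 of 741910 CG bins under salinity (3.63% of tested bins, two-sided Fisher's exact test with Benjamini-Hochberg adjustment), of which 17191 were lower and 9769 were higher in Pokkali. Bins higher in Pokkali made up 1.32% of those tested and 36.2% of those called (Wilson 95% interval 35.7 to 36.8%). In the control pair 37562 of 781473 bins were called (4.81%), with 15133 higher in Pokkali (1.94% of tested bins and 40.3% of called bins). The median difference over all tested CG bins was -0.51 points under salinity (quartiles -4.57 and 3.30) and 0.03 points in control. The tested cytosines carried 13.2 reads in Pokkali and 12.2 in IR64 under salinity, and 17.2 and 13.4 in control. After thinning both libraries to equal depth and calling each cytosine again, 16565 CG bins were called under salinity and 24707 in control, with 33.2% of the former higher in Pokkali.

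The CHH context gave another picture, with a general displacement towards higher levels in Pokkali under salinity over cytosines listed in both libraries. Over all listed CHH cytosines the pooled level was 34.1% in both salinity libraries. Pokkali salinity listed 3273828 CHH cytosines and IR64 salinity 3528951. Of 183410 CHH bins, 4521 were called under salinity (2.46%), with 3841 higher in Pokkali (2.09% of tested bins) and 680 lower. The share of called bins higher in Pokkali was 85.0% (Wilson 95% interval 83.9 to 86.0%). In control the number called was nearly equal, 4519 of 216696 bins (2.09%), but 39.1% were higher in Pokkali (1768 bins, 0.816% of tested bins). The median difference over all tested CHH bins was 3.19 points under salinity (quartiles -3.33 and 10.5), with 63.0% of bins above 0, against -0.64 points and 46.9% in control. After this median was subtracted from each difference, 78.4% of the called CHH bins were still higher in Pokkali. The depth ratio also differed between the pairs, since a tested CHH cytosine had 11.6 reads in Pokkali and 12.2 in IR64 under salinity, and 17.0 and 12.5 in control. After the same thinning, the share higher in Pokkali was 86.4% of 1645 called bins.

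**Figure D1:**
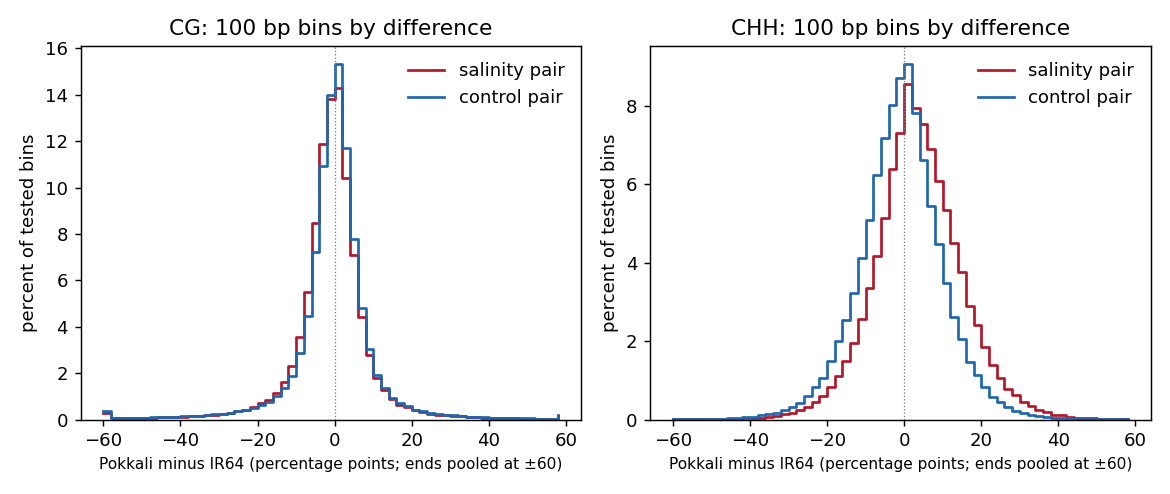
Percent of tested 100 bp bins (vertical axis) by the difference Pokkali minus IR64 in percentage points (horizontal axis, bins of 2 points, ends pooled), for CG on the left and CHH on the right, with the salinity pair in red and the control pair in blue. The CG curves lie almost on each other, with medians of -0.51 and 0.03 points, whereas the CHH curve of the salinity pair is displaced to the right, with a median of 3.19 against -0.64 points.

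The number of called bins depends on how reads are counted. Neighbouring cytosines of a bin often lie on the same read, so a sum over cytosines counts a read several times and makes the p-values too small. When each bin's counts were divided by its number of shared cytosines on the strand with more of them, so that a read counted about once, 5319 CG bins and 5 CHH bins were still called under salinity (11287 and 2 in control). Apart from chr5:5897801-5897900, these CHH bins lay between positions 1701 and 37600 of chromosome 9. They held 184 to 500 reads in each salinity library, against a median of 16 per CHH bin. Of the salinity-only bins, 10 of 107 in CG and 1 of 849 in CHH were called in this way under salinity. The whole rule was then met by 0 in CG and 1 in CHH. At an unadjusted p under 0.05, the difference of differences then passed in 2783 of 681081 CG bins, 39.3% of them above 0 (Wilson 95% interval 37.5 to 41.1%), and in 405 of 150766 CHH bins, 85.4% of them above 0 (81.7 to 88.5%). Single salinity-only bins are therefore described below by their values, and their adjusted p-values should be read as those of reads counted once per cytosine.

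CG differences under salinity were mostly present in control as well. Of 24424 called CG bins that could be tested in control, 71.0% were called there with the same sign, 4 with the opposite sign, and 98.2% had the same sign, against 57.5% of all CG bins tested in both pairs. A control difference under 10 points was found for 1885 of them (7.72%). In CHH, by contrast, 12.3% of 4267 called bins were called again in control with the same sign and 31 with the opposite sign. The sign was shared by 68.9% of these CHH bins, against 54.0% of all CHH bins, and 2334 (54.7%) had a control difference under 10 points. Over all bins tested in the control pair, 4.81% of CG and 2.09% of CHH bins were called there, so both shares called again were above these.

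Examples of the differences present in both conditions were large. At chr11:783901-784000 the CG level was 97.0% in Pokkali salinity and 14.0% in IR64 salinity (difference 83.1 points), and the control pair differed by 62.4 points. At chr12:12416501-12416600 the direction was opposite, with 13.5% in Pokkali salinity and 98.3% in IR64 salinity (-84.8 points) and -73.2 points in control. In CHH, chr6:27613401-27613500 had 79.3% against 15.5% under salinity (63.8 points) and a control difference of 50.6 points. The CHH bin chr8:27552701-27552800 had 28.0% against 92.2% (-64.2 points) and -35.2 points in control. These bins had the largest differences, with enough reads, among those called in both pairs with the same sign, and all coordinates are given in the MSU v7.0 build of the rice genome.

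Salinity-only bins were rare in CG and mostly lower in Pokkali, and more frequent in CHH and mostly higher in Pokkali. They amounted to 0.0157% of the CG bins tested in both pairs and 0.563% of the CHH bins. Of 107 CG bins, 25 were higher and 82 lower in Pokkali (23.4% higher, Wilson 95% interval 16.4 to 32.2%). Of 849 CHH bins, 798 were higher and 51 lower (94.0% higher, 92.2 to 95.4%). With both pairs exchanged, the same rule gave 201 control-only CG bins (0.0295%), 64.2% of them higher in Pokkali, and 338 control-only CHH bins (0.224%), 21.6% of them higher. The CG count under salinity was below its counterpart in control and the CHH count above it, but over the cytosines listed in all 4 libraries the CG order was not kept, with 49 salinity-only against 45 control-only bins. The CG bins nearest to the limit of 20 points were at 20.2, 20.6 and 20.6 points inside it and at 19.9, 19.2 and 18.6 points outside it, where 74 bins passed every other criterion. In CHH the nearest were at 20.01, 20.02 and 20.03 points inside and at 19.996, 19.97 and 19.96 points outside, where 295 bins passed every other criterion.

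The levels of the salinity-only bins show which libraries moved apart. These levels chose the bins and are given as a description. In the 798 CHH bins higher in Pokkali, the median level was 68.1% in Pokkali salinity, 37.6% in IR64 salinity, 43.5% in Pokkali control and 47.5% in IR64 control. The median difference was 28.1 points under salinity and -3.73 points in control. The 51 CHH bins lower in Pokkali had medians of 36.2%, 70.4%, 50% and 46.5% in the same order. Salinity-only CHH bins were thus at intermediate levels in both controls and away from them, in opposite directions, in the salinity libraries.

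In CG the bins were highly methylated in most libraries. The 82 CG bins lower in Pokkali had a median of 60.3% in Pokkali salinity, against 92.2% in IR64 salinity, 85.4% in Pokkali control and 84.4% in IR64 control. The low value was thus that of Pokkali salinity. The 25 CG bins higher in Pokkali had medians of 94.9% in Pokkali salinity, 64.1% in IR64 salinity, 90.9% in Pokkali control and 94.2% in IR64 control. The low value here was that of IR64 salinity, but each pair was read over its own shared cytosines. Over cytosines listed in all 4 libraries, the median salinity difference of 23 of these bins was only 8.65 points.

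The cytosines compared were not always the same in both pairs, since each pair uses those listed in both of its libraries. Over the cytosines listed in all 4 libraries, 790 of the 798 CHH bins higher in Pokkali kept at least 3 cytosines, and 678 of these still had a difference of 20 points or more under salinity and under 10 points in control. For the CHH bins lower in Pokkali this held for 43 of 50, and for the CG bins lower in Pokkali for 50 of 81. For the CG bins higher in Pokkali it held for 11 of 23, where the median salinity difference was 8.65 points and the median of IR64 salinity was 83.0%. When the whole rule with its tests was run on these cytosines, it gave 49 CG and 674 CHH bins, of which 46 and 528 were among the bins described here.

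The move of each cultivar from control to salinity was read over the cytosines listed in all 4 libraries. Control and salinity libraries of a cultivar were not thinned to equal depth. The mean depth of listed CHH cytosines was 20.1 reads in Pokkali control and 15.8 in Pokkali salinity, and 16.2 and 14.6 in IR64. Only called cytosines are listed and the call depends on depth, and the part of depth in these moves was not tested. In the CHH bins higher in Pokkali, the level in Pokkali was higher under salinity by a median of 20.7 points (quartiles 15.4 and 26.9), and that of IR64 differed by a median of -10.4 points (quartiles -16.3 and -5.37). The move was larger in Pokkali in 75.9% of these 790 bins, and in 43.7% both cultivars moved by 10 points or more in opposite directions. In the CHH bins lower in Pokkali the larger part belonged to IR64, with medians of -13.6 points in Pokkali and 20.8 points in IR64, and Pokkali had the larger move in 36.0% of 50 bins.

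In CG the larger part differed with the direction. CG bins lower in Pokkali had a median move of -17.3 points in Pokkali and 6.60 points in IR64, and Pokkali had the larger move in 74.1% of 81 bins. CG bins higher in Pokkali moved by 5.59 points in Pokkali and -9.24 points in IR64. For comparison, over all CHH bins with at least 3 cytosines listed in all 7 libraries the median move was 3.81 points in Pokkali and 0.62 points in IR64, and over all such CG bins it was -0.30 and 0.29 points. Depth was not made equal for these medians either. The rule asks for the libraries to part under salinity, so the opposite signs within the salinity-only bins follow in part from the choice of bins.

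**Figure D2:**
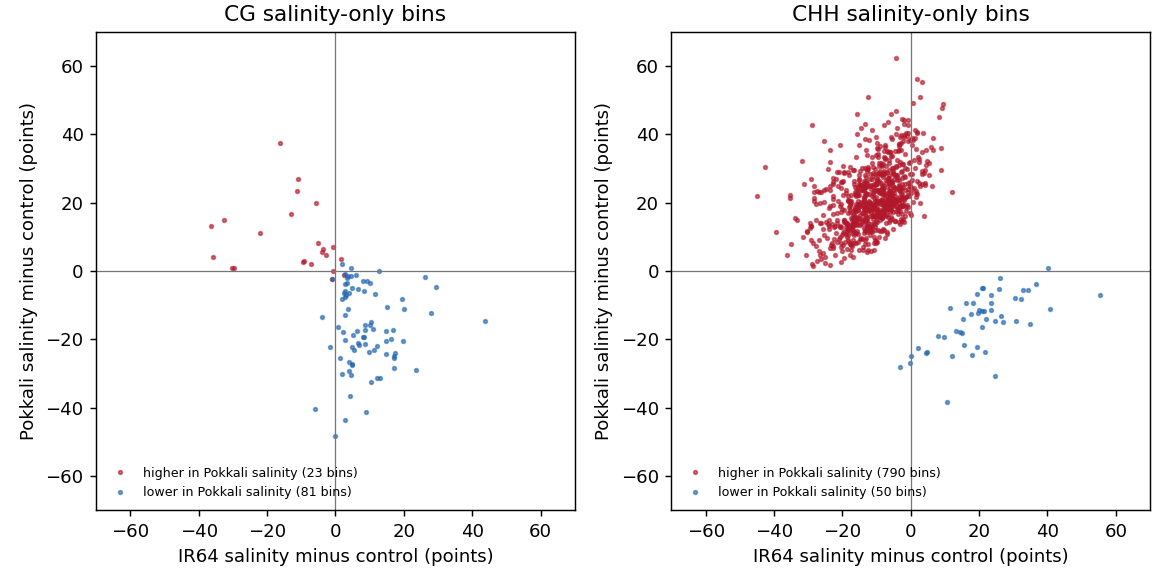
Change of the methylation level from control to salinity in IR64 (horizontal axis, percentage points) and in Pokkali (vertical axis, percentage points) for each salinity-only bin, over cytosines listed in all 4 libraries, for CG on the left and CHH on the right. The 790 CHH bins higher in Pokkali (red) lie above 0 for Pokkali and mostly below 0 for IR64, with medians of 20.7 and -10.4 points, and the 81 CG bins lower in Pokkali (blue) spread downwards, with medians of -17.3 and 6.60 points.

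The other 3 libraries took no part in the choice of bins, but the salinity and control libraries of Pokkali and IR64 did. The distances of those chosen libraries from the others in these bins therefore follow in part from the choice. In the 626 CHH bins higher in Pokkali that had at least 3 cytosines listed in all 7 libraries, the median level was 70.02% in Pokkali salinity and 40.5% in IR64 salinity. The remaining libraries lay between these values, with 48.7% in Pokkali control, 51.7% in IR64 control, 50% in IR64 desiccation, 58.0% in N22 control and 54.2% in N22 desiccation. Against IR64 desiccation in place of IR64 salinity, Pokkali salinity, itself part of the rule, was higher by a median of 19.0 points in these bins. Over all CHH bins it was higher by 3.68 points. In 60.4% of the bins IR64 desiccation was nearer to IR64 control than to IR64 salinity, and its median difference from IR64 control was -1.62 points. IR64 control and IR64 salinity were both part of the rule, and no share over all CHH bins is given, so the 60.4% is a description only.

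For the 37 CHH bins lower in Pokkali with cytosines in all 7 libraries, the medians were 37.0% in Pokkali salinity and 70.9% in IR64 salinity, and 53.7 to 58.2% in the others. The 69 CG bins lower in Pokkali had a median of 65.2% in Pokkali salinity and of 87.3 to 93.3% in the 6 other libraries. Pokkali salinity was lower than IR64 desiccation there by a median difference of -19.9 points, which follows in part from the choice of bins on Pokkali salinity. The 20 CG bins higher in Pokkali had medians of 87.5% in IR64 salinity and 90.2 to 95.02% in the others. The median of all CHH bins was 56.2% in Pokkali salinity and 50.6 to 55.9% in the other libraries. Pokkali salinity was thus the highest over all CHH bins, but the next library lay close to it.

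**Figure D3:**
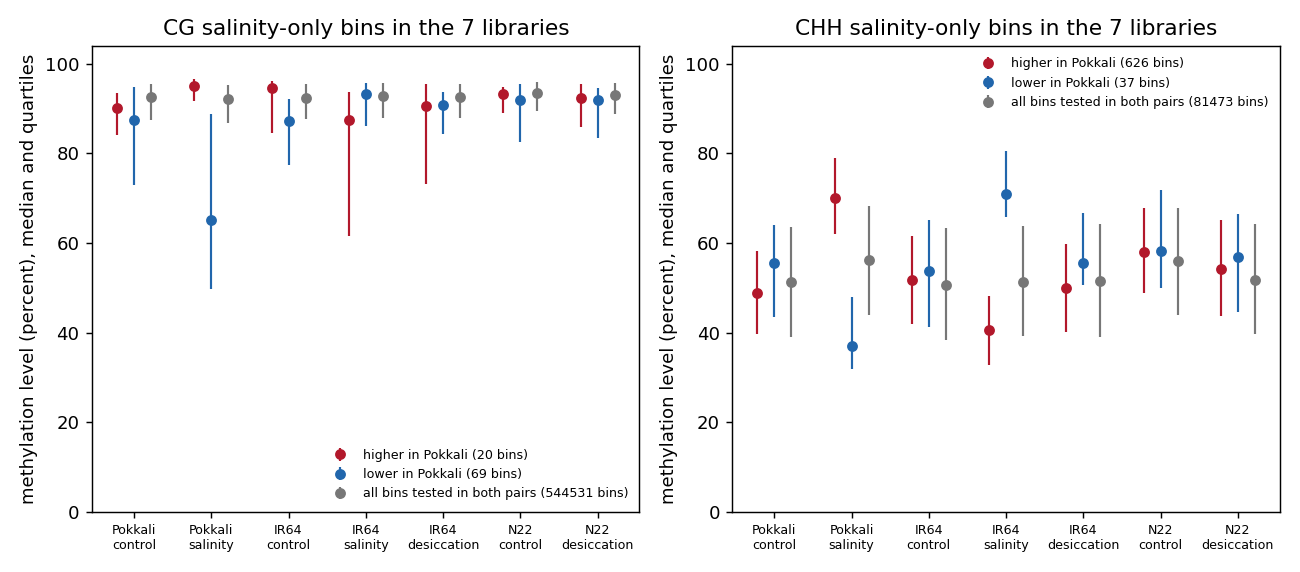
Methylation level in percent (vertical axis) in the 7 libraries (horizontal axis), for CG salinity-only bins on the left and CHH salinity-only bins on the right, over cytosines listed in all 7 libraries. Points are medians and bars are quartiles over bins that are higher in Pokkali (red), lower in Pokkali (blue) or all bins tested in both pairs (grey). In CHH both salinity libraries stand apart (70.02% and 40.5% in the bins higher in Pokkali) with the other 5 between them, and in CG Pokkali salinity stands apart in the bins lower in Pokkali (65.2%). The salinity and control libraries of Pokkali and IR64 were part of the rule, so this standing apart follows in part from the choice of bins.

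Reads of the plus and minus strands are separate reads of a library, so a bin chosen on the cytosines of a strand can be read on the other. CHH bins chosen as salinity-only and higher in Pokkali on the plus strand (421 bins) had a median difference of 30.1 points there and of 8.16 points on the minus strand, where 257 of them could be tested. Chosen on the minus strand (468 bins), they had 30.8 points there and 9.85 points on the plus strand, over 277 bins. The sign was the same on the other strand in 75.5% and 75.1% of these bins, against 63.1% of all CHH bins above 0, and the median of all CHH bins was 3.70 points on the plus and 3.71 points on the minus strand. The control pair had 1.71 and 2.72 points on the strand not used. The difference on the other strand was thus above the general displacement of CHH bins and well below that on the strand used for the choice.

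CHH bins chosen as lower in Pokkali were near 0 on the other strand, which is below the median of all CHH bins given above. Few such bins could be read there. Their medians were -33.5 and -32.1 points on the strand of choice, and 0.38 points over 14 bins and -0.08 points over 25 bins on the other. For CG, where few bins met the whole rule on a single strand, bins called on a strand with a control difference under 10 points there were read. Those lower in Pokkali had -27.9 and -28.0 points on the strand of choice and -13.0 and -12.2 points on the other, over 362 and 333 bins, with -9.25 and -7.96 points in the control pair on that other strand. Those higher in Pokkali had 27.2 and 28.5 points and then 10 and 7.88 points, over 198 and 168 bins, with 7.91 and 7.31 points in control. On the strand not used for the choice, CG differences in control thus had the same direction as under salinity and were only somewhat smaller.

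**Figure D4:**
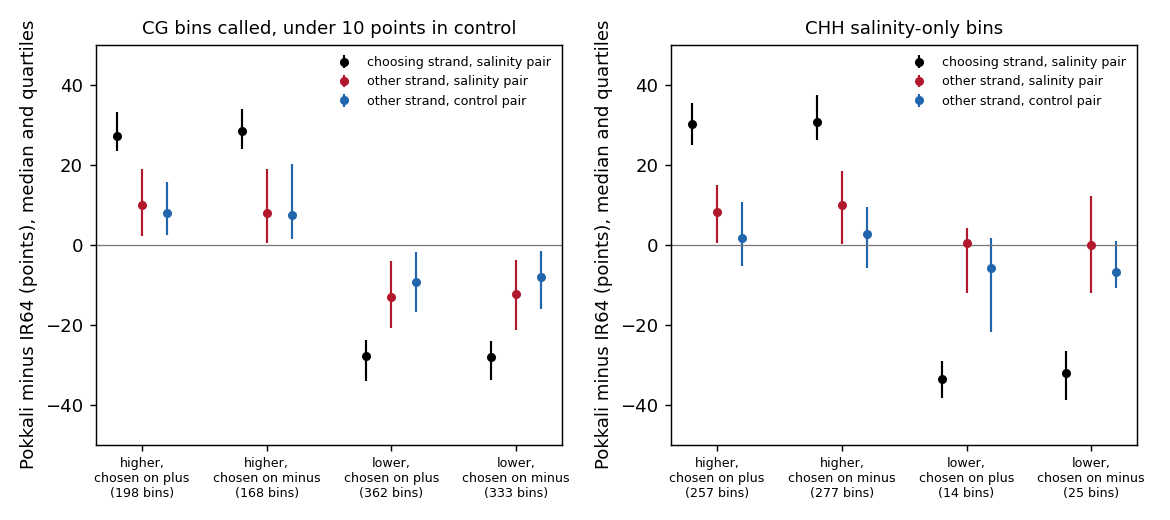
Difference Pokkali minus IR64 in percentage points (vertical axis) for bins chosen on the plus or minus strand as higher or lower in Pokkali (horizontal axis, with the number of bins read on the other strand). Black points show the strand used for the choice, red points the salinity pair on the other strand and blue points the control pair on the other strand, as medians with quartiles. In CHH the bins higher in Pokkali keep 8.16 and 9.85 points on the other strand with 1.71 and 2.72 points in control, whereas in CG the blue points lie on the same side of 0 as the red points (-9.25 against -13.0 points for bins lower in Pokkali, chosen on the plus strand).

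The CHH bins with the largest differences, among those with at least 50 reads in each of the 4 libraries over common cytosines, show what the values rest on. At chr1:5105101-5105200, 9 CHH cytosines were listed in both salinity libraries, with 88.0% of 92 reads methylated in Pokkali and 36.0% of 75 reads in IR64. The difference was 52.0 points (Agresti-Caffo 95% interval 38.2 to 63.6), against -8.99 points in control. The 7 cytosines listed in all 4 libraries all lay on the plus strand, with 8 to 12 reads each in Pokkali salinity and 7 to 9 in IR64 salinity. At all 7 of them Pokkali salinity was above both IR64 salinity and Pokkali control.

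At chr10:19757301-19757400, 10 cytosines, 5 on each strand, gave 74.7% of 87 reads in Pokkali salinity and 26.0% of 127 reads in IR64 salinity. The difference was 48.7 points (95% interval 35.9 to 59.7), and the control levels were 32.3% in Pokkali and 41.3% in IR64. After thinning it was 40.6 points and not called (adjusted p = 0.0645, Fisher's exact test). Pokkali was above IR64 at all 10 cytosines under salinity and at 2 of them in control. At chr1:3130801-3130900 the levels were 69.5% and 20.8% under salinity (48.6 points, 95% interval 37.7 to 58.2) and 54.2% and 48.6% in control. Over the 8 cytosines listed in all 4 libraries, all on the minus strand, the larger move there was that of IR64, -30.4 points against 11.6 points in Pokkali.

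Of the CHH bins lower in Pokkali, chr9:15240101-15240200 had 33.3% of 60 reads in Pokkali salinity and 80.6% of 67 reads in IR64 salinity (-47.3 points, 95% interval -61.0 to -30.7), with 46.7% and 53.1% in control. At chr5:20767801-20767900 the salinity levels were 36.2% and 81.4% (-45.2 points, 95% interval -56.3 to -32.0), and over the 13 cytosines listed in all 4 libraries the control difference was -14.4 points, beyond the limit of 10. The bin chr7:25325701-25325800 had 39.0% and 80.7% under salinity (-41.7 points, 95% interval -56.3 to -24.3) and 65.1% and 61.0% in control, and it was not called after thinning (-37.8 points, adjusted p = 0.021, Fisher's exact test). In each of these 3 bins the common cytosines lay on a single strand, with 5 to 16 reads each in the salinity libraries.

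The CG bins lower in Pokkali with the largest differences did not all hold over common cytosines. At chr7:15732901-15733000 the CG level was 27.4% of 135 reads in Pokkali salinity and 88.6% of 79 reads in IR64 salinity, a difference of -61.2 points (95% interval -70.3 to -49.5), and -9.09 points in control over 17 cytosines. Over the 7 cytosines listed in all 4 libraries, however, the control libraries differed by -45.8 points (40.1% in Pokkali and 85.9% in IR64), so both pairs differed in the same direction at these sites. At chr5:3056101-3056200 the levels were 38.5% of 96 reads and 89.6% of 106 reads (-51.1 points, 95% interval -61.4 to -38.8). The control difference was 6.62 points over its own cytosines and -17.2 points over the 4 listed in all 4 libraries, where Pokkali differed by -17.1 points and IR64 by 16.8 points between salinity and control.

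The remaining bin, chr5:13325801-13325900, was near full methylation in both controls. Its 5 CG cytosines had 46.2% of 65 reads methylated in Pokkali salinity and 96.2% of 53 reads in IR64 salinity (-50.1 points, 95% interval -61.6 to -34.9), and 94.4% and 96.3% in the controls over the same cytosines. All 5 were lower in Pokkali salinity than in Pokkali control, and the level in IR64 desiccation was 100%. The strands differed, however, with 36.8 to 41.2% at the 3 minus strand cytosines in Pokkali salinity. The 2 plus strand cytosines stayed at 80.0% of 5 reads and 83.3% of 6 reads. With reads counted about once, the bin was not called (-49.0 points, adjusted p = 0.11, Fisher's exact test). In N22 control and N22 desiccation only 1 CG cytosine of this bin was listed, at 21.1% of 19 reads and 31.8% of 22 reads.

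Of the CG bins higher in Pokkali, chr12:24590801-24590900 had 92.9% of 70 reads in Pokkali salinity and 42.4% of 59 reads in IR64 salinity (50.5 points, 95% interval 35.1 to 63.0), with 54.9% and 61.3% in control. Pokkali salinity exceeded Pokkali control at all 8 common cytosines. The call at this bin was lost with a 1% error rate (31.3 points, adjusted p = 0.097, Fisher's exact test), after thinning (20 points over 3 cytosines, adjusted p = 0.981) and on the minus strand alone (20 points, adjusted p = 0.486). At chr2:8807901-8808000 the levels were 82.8% and 37.0% (45.8 points, 95% interval 30.1 to 58.9), and at chr4:2562801-2562900 they were 97.7% and 56.0% (41.7 points, 26.8 to 54.9). In both of these IR64 salinity was lower than both controls and Pokkali salinity. IR64 desiccation was low there as well, with 41.2% of 68 reads over the listed CG cytosines at the bin on chromosome 2 and 68.4% of 114 reads at the bin on chromosome 4. At the bin on chromosome 2 the call was lost after thinning (38.3 points, adjusted p = 0.0113, Fisher's exact test) and on the minus strand alone (32.2 points, adjusted p = 0.129). The IR64 value at the bin on chromosome 4 came from 9 cytosines of the plus strand with 5 or 6 reads each.

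**Figure D5:**
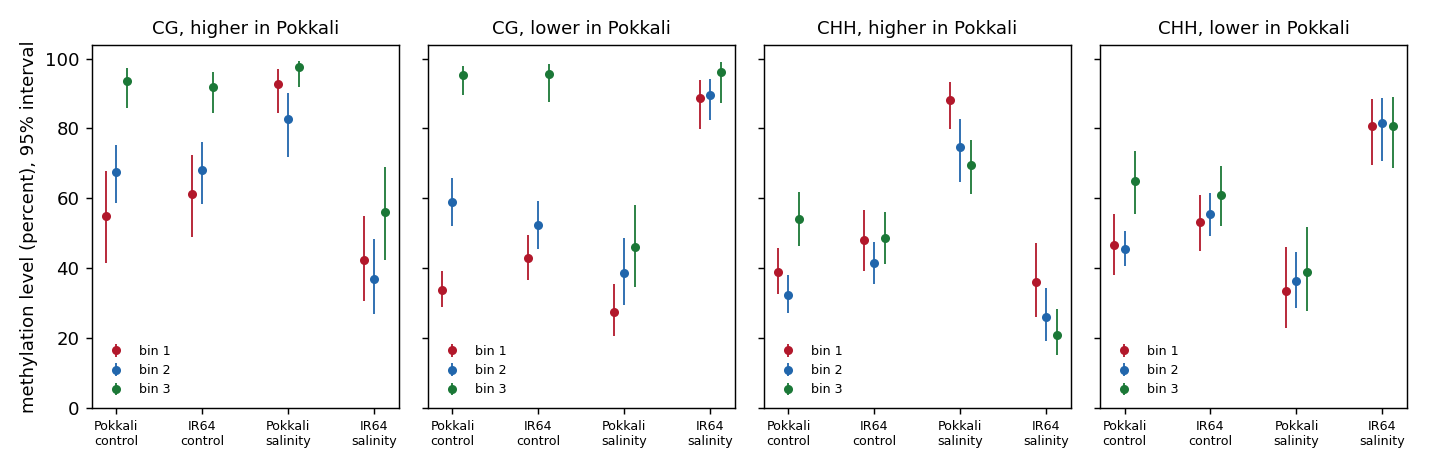
Methylation level in percent (vertical axis, with Wilson 95% intervals) of the 12 salinity-only bins with the largest differences, in Pokkali control, IR64 control, Pokkali salinity and IR64 salinity (horizontal axis), each pair over its own shared cytosines. In each panel bins 1 to 3 are in the order of the text. The control levels of a bin lie close together while the salinity levels part, for example 88.0% and 36.0% in CHH bin 1 higher in Pokkali. The rule and the ranking by difference asked for this pattern. Over cytosines listed in all 4 libraries, the control levels also parted in some bins lower in Pokkali. The control difference there was -45.77 and -17.15 points in CG bins 1 and 2 and -14.37 points in CHH bin 2.

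Most salinity-only bins stood alone. In CG, 103 of 107 were single bins, and there were 2 runs of 2 neighbouring bins, both lower in Pokkali. At chr3:4071001-4071100, 8 CG cytosines, 4 on each strand, had 18 to 22 reads each in Pokkali salinity, and the level was 32.1% there, 78.8% in IR64 salinity, 56.8% in Pokkali control and 61.8% in IR64 control. All 8 were lower in Pokkali salinity than in Pokkali control, and all 8 were higher in IR64 salinity than in IR64 control. The next bin, chr3:4071101-4071200, had 23.1% in Pokkali salinity and 64.3% in IR64 salinity, with 54.4% and 52.2% in control, so both bins of the run were intermediate in control and moved in opposite directions.

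The second CG run was at chr7:26683701-26683900. Its first bin had 66.2% in Pokkali salinity and 97.6% in IR64 salinity, and 83.6% and 91.4% in the controls, over 13 cytosines on both strands. Its second bin had 47.7% and 90.6% under salinity and 88.1% and 96.6% in control, and Pokkali salinity was lower than Pokkali control at all 5 cytosines. Here Pokkali salinity was the low library. These 4 bins had the same cytosines listed in both pairs.

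In CHH, 801 bins were single and 48 lay in 23 runs. The longest continuous run, chr1:26875701-26876000, had 3 bins with differences of 25.1, 24.8 and 25.1 points under salinity and 2.68, 3.43 and -3.50 points in control. Pokkali salinity was at 61.9%, 60.2% and 43.8% in these bins and IR64 salinity at 36.8%, 35.4% and 18.7%. Pokkali was above IR64 at 16 of 18, 24 of 24 and 5 of 5 common cytosines under salinity, and at 10, 15 and 0 of them in control. Over these common cytosines the control difference of the last bin was -14.0 points, beyond the limit of 10, and none of the 3 bins was salinity-only. After thinning, the last 2 bins were at 18.8 and 16.1 points and no longer called, on the minus strand alone none of the 3 was called (14.5, 23.7 and 19.5 points), and with a 1% error rate the last bin was at 19.8 points (adjusted p = 0.214, Fisher's exact test). A run of equal number at chr3:35763101-35763500 had differences of 21.3, 30.1 and 27.5 points, interrupted by a bin with 8.26 points (adjusted p = 0.102, Fisher's exact test), which was at -9.59 points on the plus strand alone. The first of these bins was at 19.1 points after thinning and no longer called. Another salinity-only bin lay within 1 kb for 6.60% of the CHH bins, against 4.73% of control-only CHH bins, and for 3.74% of the CG bins, against 0.995% of control-only CG bins.

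The 1 CHH salinity-only bin that was still called when reads were counted about once was chr9:37501-37600, near the start of the chromosome. Pokkali salinity had 27.2% of 1270 reads methylated over 4 cytosines and IR64 salinity 3.96% of 1135 reads, and the control levels were 5.92% and 3.25%. The depth at each cytosine was far above the mean depth of the libraries. None of its CHH cytosines was listed in all 4 libraries, so the salinity and control values come from different cytosines. This bin was chosen after its values were seen.

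The other contexts of the same bins were read as measurements the rule had not used. In CHH bins higher in Pokkali, the CHG difference under salinity had a median of 8.14 points over the 157 bins that could be tested, with 78.3% above 0. Over all CHH bins the CHG median was 1.86 points, with 59.6% above 0, and in control the 180 testable bins had -0.11 points. The 11 testable bins of those lower in Pokkali had a median of -10.5 points. CHG thus followed CHH in sign in both sets, while CG followed less, with 1.19 points over 230 bins and -2.32 points over 26 bins, against -0.19 points over all CHH bins. CHH and CHG cytosines of a bin share reads, so these values are not independent of the sampling of reads.

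Most salinity-only bins held too few listed cytosines of the other contexts for a test. Neither other context could be tested in 77.6% of the CG bins, against 49.5% of all CG bins, and in 59.1% of the CHH bins, against 36.7% of all CHH bins. CHG could be tested in 19.6% of the CG bins (44.3% of all) and in 19.8% of the CHH bins (38.2% of all). No bin was salinity-only in both CG and CHH. Of the CHH bins, 70.6% had 0 to 2 listed CG cytosines, against 52.4% of all CHH bins, and 3.53% had 7 or more, against 13.5%. The CHH displacement under salinity followed the same order, with medians of 4.17 points in bins with 0 to 2, 2.80 points with 3 to 6 and 1.195 points with 7 or more CG cytosines, against -0.85, -0.59 and -0.10 points in control. Among the CG bins 45.8% had 7 or more CG cytosines, against 28.7% of all CG bins. These CHH bins also held more data, with a median of 13 shared cytosines in those higher in Pokkali against 7 over all CHH bins, and the part of this number in these shares was not tested.

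The CHH salinity-only bins were spread over all chromosomes, from 40.1 per 10000 tested bins on chromosome 10 to 66.6 on chromosome 3. The CG bins ranged from 0.654 per 10000 on chromosome 4 to 2.05 on chromosome 7. By windows of 1 Mb ordered by their number of listed CG cytosines, salinity-only bins were 0.628%, 0.589% and 0.464% of tested CHH bins in the windows with the fewest, a middle number and the most CG cytosines. In CHG, for completeness, 9129 of 451470 bins were called under salinity (2.02%) and 12755 of 485503 in control (2.63%), and 3 bins were salinity-only (0.000757%) and 4 control-only (0.00101%). The 3 CHG bins were chr4:10033301-10033400 (90.5% in Pokkali salinity and 44.8% in IR64 salinity), chr9:37701-37800 (34.3% and 10.1%) and chr12:12386001-12386100 (28.5% and 62.5%).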

How the data were processed

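Whole genome bisulphite sequencing of 7 seedling libraries was used. The authors mapped reads to the MSU v7.0 rice genome with Bismark, dropped clonal reads and those with several positions, and used methylKit with a binomial test (p of 0.001, at least 5 reads) to call a cytosine methylated. The deposited tables hold, for each called cytosine, the read depth as a read count and the level as a percent of reads. They list called cytosines only, and the call depends on depth and on the error rate of each library.

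Methylated reads were taken as depth times level, and summed by context in 100 bp bins of the 12 chromosomes that held at least 3 cytosines found in both libraries of a pair. Bins were tested by a two-sided Fisher's exact test with Benjamini-Hochberg adjustment over all bins of a context. The difference of differences was tested by a z test with Agresti-Caffo counts over bins tested in both pairs. The pairs share no library. Members, rules and alternatives were chosen with earlier results of these data known. Named bins were, among salinity-only bins with at least 3 cytosines listed in the 4 libraries and 50 reads in each, the 3 higher and 3 lower with the largest difference. The 2 longest runs and the largest difference of each direction called in both pairs with the same sign, at 50 reads or more in each library, were added. Alternatives changed the depth minimum, extreme depths, shared cytosines, bin edges, difference limit, centring, error rate, equal depth, strand, counting of reads and the control limit. Python 3.11.15, numpy 2.4.6, scipy 1.17.1 and pandas 2.3.3 were used, and the calculation was tested on simulated data. Gene annotation and genome sequence were not used here.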

Additional observations from a re-analysis of the deposited data

Results flagged for a closer look

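The pairs differed in their medians over all tested bins, a difference that was not itself tested. The CG median was -0.51 points in the salinity pair and 0.03 in the control pair, and the CHH median was 3.19 against -0.64 points. The difference of differences, salinity pair minus control pair, passed an adjusted p of 0.01 in 817 CG bins, 24.6% of them above 0, and in 3598 CHH bins, 89.4% of them above 0 (z test with Benjamini-Hochberg adjustment). With each read counted about once, the lowest adjusted p of this test was 0.15 in CG and 3.09e-05 in CHH.

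The salinity-only bins described singly were chosen with this difference between the pairs as part of the rule, each pair over its own shared cytosines. In CG it was 56.87, 46.29 and 40.06 points for the bins higher in Pokkali on chromosomes 12, 2 and 4, and -52.11, -57.70 and -49.96 points for those lower in Pokkali on chromosome 7 and the pair on chromosome 5. Over the cytosines listed in all 4 libraries these last 3 were -15.43, -33.93 and -48.16 points. The bins of the CG runs had -41.70 and -43.37 points on chromosome 3 and -23.58 and -34.46 points on chromosome 7. In CHH it was 61.03, 57.79 and 42.99 points for the bins higher in Pokkali and -40.88, -35.34 and -45.75 points for those lower. The CHH runs had 22.38, 21.34 and 28.61 points on chromosome 1 and 22.49, 20.52 and 26.31 points on chromosome 3.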

How the results depend on the processing

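No named bin that was called changed its direction under the alternatives run. The uncalled bin chr3:35763201-35763300 went from 8.26 to -9.59 points on the plus strand alone, and the order of CG salinity-only and control-only counts, 107 against 201, turned over cytosines listed in all 4 libraries. Counting each read about once gave 5319 CG bins (11287 in control, 26.7% higher in Pokkali under salinity), 5 CHH bins (2 in control, 60% higher), 1124 CHG bins (2058 in control), 0 CG and 1 CHH salinity-only bin (100% higher) and 0 control-only bins in both contexts. At 20 points and an unadjusted p under 0.05, 27377 CG bins (35.3% higher) and 972 CHH bins (78.4% higher) then remained. Thinning to equal depth with a 1% error rate gave 16565 CG bins (24707 in control, 33.2% higher), 1645 CHH bins (1588 in control, 86.4% higher) and 4785 CHG bins (7060 in control), with 35 CG (34.3% higher) and 194 CHH (97.4% higher) salinity-only and 43 and 84 control-only bins.

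A depth minimum of 10 gave 33.7% of CG bins higher, and 2704 CHH bins (83.1% higher), 461 salinity-only and 147 control-only. With 5 shared cytosines there were 13257 CG bins (17679 in control, 38.9% higher), 115 CG control-only bins, 6076 CHG bins (8151 in control) and 86.0% of CHH bins higher. A limit of 30 points gave 24210 CG bins in control, 52 CG salinity-only and 98 control-only bins, 1718 CHH bins (1710 in control, 82.8% higher), 343 salinity-only (92.1% higher) and 105 control-only CHH bins, and 8134 CHG bins in control. Subtracting the medians, for the difference limits only and not in the tests, gave 36.9% (CG) and 78.4% (CHH) higher, and 91.9% of CHH salinity-only bins. A 1% error rate gave 34.5% in CG. Bins shifted by 50 bp gave 95.5% of CHH salinity-only bins higher.

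Cytosines listed in all 4 libraries gave 34.6% of CG and 86.0% of CHH bins higher, and 49 CG salinity-only (16.3% higher) and 45 control-only bins. The plus strand alone gave 8428 CG bins (12159 in control, 38.3% higher), 32 and 44 CG salinity-only and control-only bins, 3007 CHH bins (86.5% higher), 450 CHH salinity-only bins and 3336 CHG bins (4544 in control). The minus strand alone gave 8342 CG bins (12077 in control, 37.5% higher), 22 (50% higher) and 41 CG salinity-only and control-only bins, 2938 CHH bins, 513 CHH salinity-only bins (91.2% higher) and 3272 CHG bins (4537 in control). A control limit of 5 points gave 64 and 118 CG and 448 and 167 CHH salinity-only and control-only bins, and without the test between pairs there were 1885 (34.4% higher) and 3097 in CG and 2334 (91.5% higher) and 1690 in CHH. The cause of these changes was not tested. No paired analysis was possible because each group is 1 library and the labels give no replicate numbers. With 1 library a group, plants, cultivars, treatments and library preparation cannot be told apart, and at 12 to 17 reads a cytosine single bins rest on few reads.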

Other observations

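At the cytosines of CHH bins lower in Pokkali, fewer CHH cytosines were listed in Pokkali salinity than in IR64 salinity in 84.3% of 51 bins. In CHH bins higher in Pokkali, more were listed in Pokkali salinity in 58.3% of 798 bins. A cytosine is listed only where it was called methylated, so both shares follow in part from the choice of bins by level. The shares over all CHH bins are not given here. Over CHH bins with cytosines in all 7 libraries, the median move from control was 0.68 points in IR64 desiccation and -3.33 points in N22 desiccation, beside 3.81 points in Pokkali salinity and 0.62 points in IR64 salinity. These moves were read without thinning to equal depth.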
